A study of Mus musculus with 15 samples.

Results

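The 9 transcription factors described here act in Purkinje cells and were followed through postnatal development of the mouse cerebellum. They are the LIM-homeodomain factors Lhx1 and Lhx5, the corepressor Skor2, the nuclear receptors Rora and Esrrb, the basic helix-loop-helix repressors Bhlhe41 and Hes3, and the forkhead factors Foxp2 and Foxp4. The 9 genes were taken by name from the 19500 genes on the array, and each was read by a single probe set. RNA was purified from pooled cerebella through ribosomes that carry the tagged protein L10a-Egfp, in mice with the transgene Tg(Pcp2-L10a-Egfp). The 15 arrays are 3 each at P0, P7, P15, P21 and P56 (days after birth), and all 5 ages carry the same transgene. The Pcp2 promoter, active in Purkinje cells, drives the tag, so the amount of tagged ribosome may itself change with age. The labels give no sex, strain or batch, so batch and age cannot be told apart, and no RNA from the unpurified tissue was used here. Whether arrays of the same age stem from different pools of animals is not stated, so p-values may measure technical spread only.

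Purkinje cells are the inhibitory output neurons of the cerebellar cortex. They are born before birth, and grow their dendrites and receive their synapses in the weeks after it. In mice, LHX1 and LHX5 act together with the cofactor LDB1 in Purkinje cell differentiation, SKOR2 is needed for it, and loss of RORA causes the staggerer ataxia with stunted and dying Purkinje cells.

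All values are log2 signals as deposited, and a change is the later age minus the earlier age. Changes were tested with limma over all 22092 probe sets in a fit of the 15 arrays, and a gene was called at an adjusted p under 0.05 (Benjamini-Hochberg). With 3 arrays per age, the smallest p of an exact permutation test is 0.1. Each call therefore rests on the spread that limma pools over the ages and over genes. The lower quartile of an array lay between 5.86 and 6.01, and a signal near it may be background.

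The RNA at P0 stood apart from the later ages in many of its cell type markers. Of 14 Purkinje cell markers measured, 14 rose between P0 and P7, and the mean of the list was 13.06 to 13.07 over the P7 arrays, against 8.92 to 8.97 over the P0 arrays. From P7 on, the list mean stayed between 13.06 and 13.25. Markers of other cells gave signal too: all 12 endothelial and mural markers fell between P0 and P7 (list mean 7.20 to 7.24 at P7, against 9.16 to 9.19 at P0), as did all 12 interneuron markers (8.37 to 8.54, against 10.42 to 10.44) and 10 of 11 microglial markers (6.72 to 6.82, against 8.09 to 8.13). Granule cell markers rose in 8 of 12 cases (10.32 to 10.47, against 8.81 to 8.84). Of 11 oligodendrocyte markers 6 rose and 5 fell, and the mean of granule cell progenitor markers was 8.79 at P7, against 8.81 at P0. Of all probe sets, 33.6% rose and 28.5% fell in this step. The part of these shifts in the changes of the 9 factors was not tested, and fewer cells of a type cannot be told apart from less RNA per cell. A change in capture and a change within Purkinje cells likewise cannot be told apart in comparisons with P0.

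**Figure D1:**
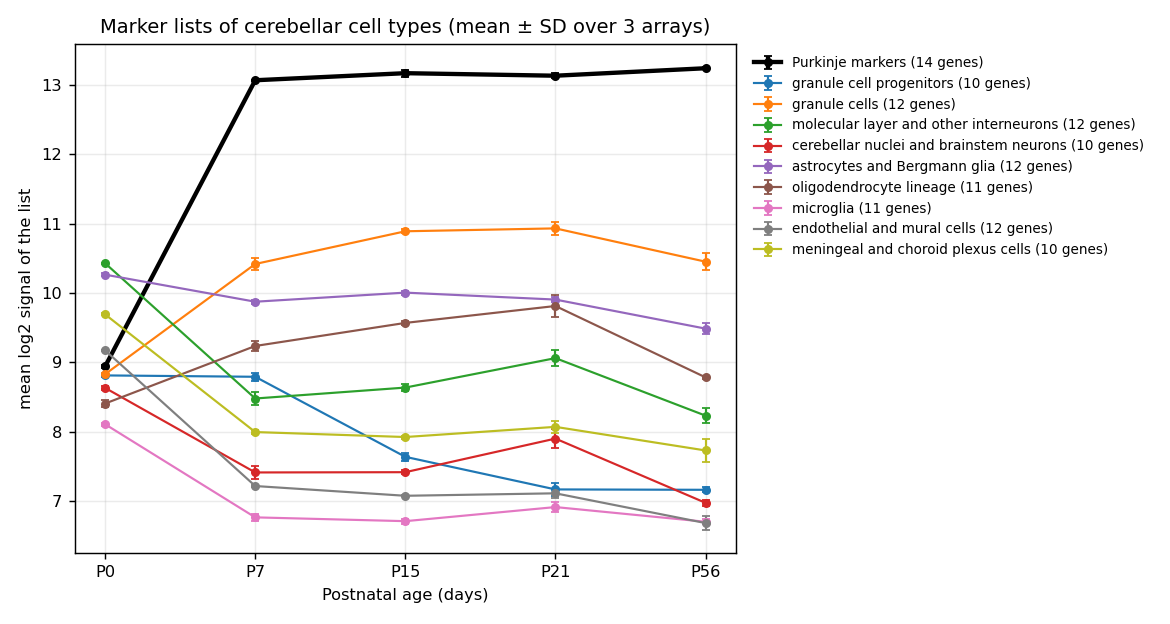
Mean log2 signal (y axis) of the marker lists of 10 cell types at P0, P7, P15, P21 and P56 (x axis), with the SD over 3 arrays. The Purkinje marker mean was 8.94 at P0 and between 13.07 and 13.24 at the 4 later ages, while the endothelial, microglial and meningeal lists were highest at P0.

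All 9 factors differed between ages (limma F-test, background 81.6% of all probe sets). Between P0 and P7, 8 of 9 rose and Foxp2 fell, against a background of 62.1% of probe sets called, 33.6% higher and 28.5% lower. The median change of the 9 was 1.90, and that of all probe sets was 0.05. After P7 the factors parted. Between P7 and P56, Hes3, Bhlhe41, Lhx1, Lhx5 and Foxp4 rose further and Esrrb, Skor2, Foxp2 and Rora fell (background 59.6% called, 25.4% higher and 34.2% lower). Foxp2 was the only factor of the 9 that was lower at P56 than at P0, and the other 8 were higher (background 75.4% called, 40.1% higher and 35.3% lower). The P56 arrays had the lowest medians, and setting all array medians equal shifted the median change of all probe sets by 0.26 for P56 against P7 and by 0.32 for P56 against P0. Under that setting Rora no longer fell between P7 and P56 (0.05, not called), which left 5 higher and 3 lower, and Foxp2 was not called between P0 and P7, which left 8 higher and 0 lower.

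**Figure D2:**
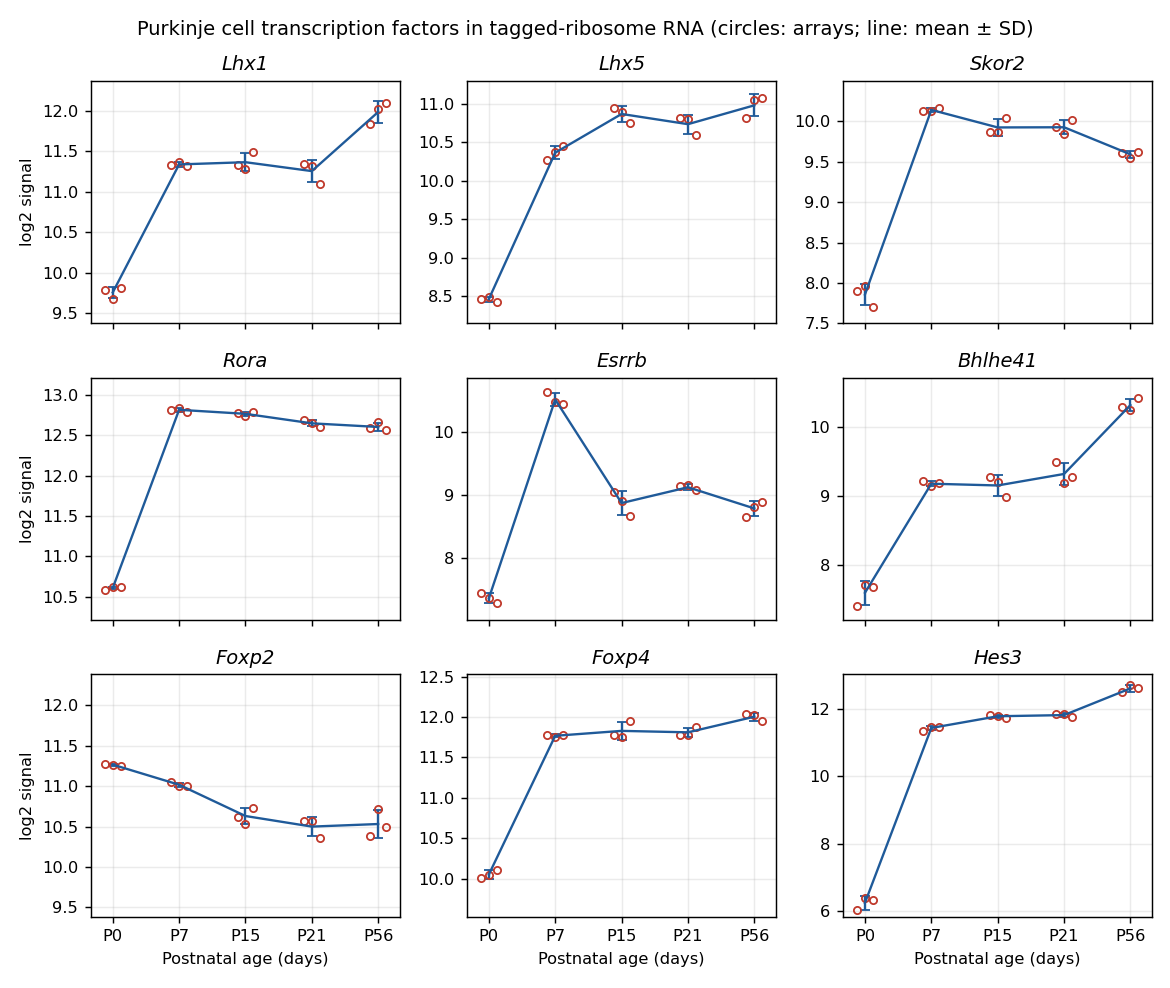
Log2 signal (y axis) of each factor at P0, P7, P15, P21 and P56 (x axis); circles are single arrays, and the line joins the means with the SD over 3 arrays. The y axes cover different ranges. Hes3 has the widest range of age means (6.37), Esrrb has its highest mean at P7 (10.52), and Foxp2 alone has its highest mean at P0 (11.27).

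Lhx1 (chromosome 11, 84517975 to 84525534, GRCm38.p6), a LIM-homeodomain activator, read 9.78, 9.67 and 9.81 in the P0 arrays and 11.33, 11.37 and 11.32 in the P7 arrays. It then read 11.33, 11.28 and 11.50 at P15, 11.35, 11.32 and 11.10 at P21, and 11.84, 12.03 and 12.10 at P56. The P0 arrays lay below all others and the P56 arrays above all others, whereas P7, P15 and P21 overlapped. In limma, Lhx1 rose by 1.58 between P0 and P7 (SE 0.09, adjusted p 2.33e-11) and by 0.73 between P21 and P56 (SE 0.09, adjusted p 1.29e-06). It had made 70.9% of its whole change of 2.23 by P7.

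Lhx5 (chromosome 5, 120431886 to 120441457), its close relative, read 8.46, 8.49 and 8.43 at P0 and 10.27, 10.37 and 10.45 at P7. It went on to 10.95, 10.90 and 10.75 at P15, 10.81, 10.80 and 10.59 at P21, and 10.81, 11.05 and 11.08 at P56. Lhx5 kept rising between P7 and P15 (0.50, SE 0.09, limma adjusted p 3.58e-04), a step in which Lhx1 changed by 0.03 (adjusted p 0.891). Whether those changes differ from each other was not tested. The P15, P21 and P56 arrays of Lhx5 overlapped. Its rise of 0.24 between P21 and P56 (limma adjusted p 0.0217) was lost in 5 of 14 alternatives, including the omission of P21 replicate 3 (0.17, adjusted p 0.116), P56 replicate 2 (adjusted p 0.0712) or P56 replicate 3 (adjusted p 0.0856).

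Of 21 LIM-homeodomain and LIM cofactor genes measured, Lhx1 and Lhx5 among them, 6 rose and 11 fell between P0 and P56 (median −0.38, against 0.08 over all probe sets), a split that was 10 and 11 with quantile normalization and 10 and 10 with equal array medians. Without Lhx1 and Lhx5, 4 of the 19 others rose and 11 fell as deposited, against 40.1% and 35.3% of all probe sets. Ldb1, the adaptor that links LHX1 and LHX5 into complexes, fell by 0.75 to 11.42 at P56, against 12.17 at P0. Its relative Ldb2 fell by 4.58 to 6.72, against 11.29. Lmo1 (−2.05), Lmo3 (−4.69) and Lmo4 (−2.06), which encode LIM-only proteins that compete for LDB1, fell, while the LIM-only gene Lmo2 rose by 1.97 to 11.36, against 9.39. The LDB1 partners Ssbp2 (−1.03) and Ssbp3 (−1.02) fell, and their relative Ssbp4 rose by 0.24 to 10.87, against 10.63. Among other LIM-homeodomain genes, Lhx9 fell by 4.11 and Lhx2 by 3.16, to 6.83 and 6.78 at P56. These named calls held under both other scalings. Markers of cerebellar nuclei and brainstem neurons fell in 7 of 10 cases over the same span (list mean 6.93 to 7.01, against 8.60 to 8.66), and their part in these falls was not tested.

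Skor2 (chromosome 18), a corepressor of the SKI family, read 7.91, 7.96 and 7.70 at P0 and 10.13, 10.13 and 10.17 at P7. The later arrays read 9.87, 9.87 and 10.04 at P15, 9.93, 9.84 and 10.01 at P21, and 9.61, 9.54 and 9.62 at P56. Skor2 was therefore highest at P7, lower at P15 and P21, which overlapped, and lower again at P56, which still lay above every P0 array. In limma, it rose by 2.29 between P0 and P7 (SE 0.08, adjusted p 4.38e-14) and fell by 0.55 between P7 and P56 (SE 0.08, adjusted p 8.72e-06). The change of −0.22 between P7 and P15 (adjusted p 0.0491) lost its call in 8 of 14 alternatives: both other scalings, a replicate block (adjusted p 0.0656) and the omission of any P7 array or of P15 replicate 1 or 2 (adjusted p 0.102 to 0.161). The change of −0.34 between P21 and P56 (adjusted p 0.00125) was −0.10 and not called with quantile normalization (adjusted p 0.321) or equal array medians (adjusted p 0.250).

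Its relative Skor1 rose by 1.11 between P0 and P7 and fell by 1.08 between P21 and P56, to 9.06 at P56, against 10.15 at P21. Of 18 genes of the SKI family and SMAD signalling, the pathway that SKI proteins restrain, Skor2 among them, 5 rose and 11 fell between P0 and P56 (median −0.56), or 6 and 10 with quantile normalization and 7 and 9 with equal array medians (background 40.1% higher and 35.3% lower as deposited). The receptors Tgfbr1 (−1.99) and Bmpr1a (−1.49) and the signal carriers Smad5 (−1.85) and Smad4 (−1.10) fell. Smad9 (1.64), the inhibitor Smad7 (0.99) and Ski (0.71) rose, as Skor2 did. Over the same span, endothelial and mural markers fell in 12 of 12 cases. Markers of astrocytes and Bergmann glia fell in 8 of 12 cases and rose in 4, and granule cell markers rose in 10 of 12. The part of these cells in the changes of the pathway genes was not tested.

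Rora (chromosome 9, 68653404 to 69388246), a nuclear receptor that activates Purkinje cell genes, read 10.59, 10.62 and 10.62 at P0 and 12.82, 12.84 and 12.79 at P7. It stayed at 12.77, 12.74 and 12.78 at P15, 12.68, 12.65 and 12.61 at P21, and 12.58, 12.66 and 12.56 at P56. The P0 arrays lay far below the others, P7 lay just above P15 and P15 above P21, and P21 and P56 overlapped. In limma, Rora rose by 2.21 between P0 and P7 (SE 0.06, adjusted p 1.77e-15). Between P7 and P56 it fell by 0.21 (SE 0.06, adjusted p 0.00419), a change that turned to 0.05 with equal array medians.

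Of the 6 genes listed as dependent on RORA in mouse cerebellum, 4 were analysed here, and all 4 rose between P0 and P7 (background 33.6% higher). The changes were 4.63 for Pcp2, 3.99 for the glutamate transporter Slc1a6, 1.48 for Shh, the mitogen that Purkinje cells release to granule cell progenitors, and 0.27 for Pcp4, a calmodulin regulator. Between P7 and P56, Pcp2 (0.54) and Pcp4 (0.28) rose, and Shh changed by −0.08 without a call (background 25.4% higher and 34.2% lower). Slc1a6 fell by 0.43 in that span, or by 0.17 without a call when array medians were equal. Pcp2, Pcp4 and Slc1a6 are also on the Purkinje marker list, so their rise is not separate from the shift described above.

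Esrrb (chromosome 12, 86361117 to 86521628), an orphan receptor of the estrogen-related family, gave a peak at P7. It read 7.44, 7.36 and 7.28 at P0, 10.63, 10.47 and 10.45 at P7, and 9.05, 8.90 and 8.67 at P15. The arrays then read 9.14, 9.16 and 9.08 at P21 and 8.66, 8.82 and 8.89 at P56. Every P7 array lay above every array of any other age, and every P0 array below. In limma, Esrrb rose by 3.16 between P0 and P7 (SE 0.09, adjusted p 6.54e-15) and fell by 1.64 between P7 and P15 (SE 0.09, adjusted p 2.18e-09), which ranked 32 by size among the 22092 probe sets in that step. P15 and P56 overlapped. The difference of 0.25 between P15 and P21 was not called (adjusted p 0.0698), except without P15 replicate 1 (0.34, adjusted p 0.0235) or without the dimmer probe sets (adjusted p 0.0374). The change of −0.34 between P21 and P56 (adjusted p 0.00475) was not called with quantile normalization (−0.05) or equal array medians (−0.10).

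RefSeq (GRCm38.p6) gives Esrrb 2 start sites on chromosome 12, and 1 probe set stands for the gene. The 250 bases before each are shown because Esrrb had the largest change of the 9 factors between P7 and P15. Capitals mark a match on either strand to CACNAG, the N-box of HES repressors, which 36.7% of 32851 such windows hold.
Esrrb, chr12:86360867-86361116, plus strand: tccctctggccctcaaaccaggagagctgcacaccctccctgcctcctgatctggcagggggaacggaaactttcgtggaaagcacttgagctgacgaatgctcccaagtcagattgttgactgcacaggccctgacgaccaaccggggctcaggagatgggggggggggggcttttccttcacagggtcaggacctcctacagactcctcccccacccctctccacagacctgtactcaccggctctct
Esrrb, chr12:86421394-86421643, plus strand: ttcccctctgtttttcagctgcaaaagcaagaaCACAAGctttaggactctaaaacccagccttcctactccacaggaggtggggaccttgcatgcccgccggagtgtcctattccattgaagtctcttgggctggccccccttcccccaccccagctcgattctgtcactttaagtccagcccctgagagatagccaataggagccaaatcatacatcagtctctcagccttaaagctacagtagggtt
The match begins 217 bases before the second start. The window of Foxp4 also held CACNAG, beginning 171 bases before its start, and those of Lhx1, Rora and Bhlhe41 did not. Neither Esrrb window held AGGTCA, the core site of ROR, ERR and REV-ERB receptors (in 14% of windows), nor did the window searched for Rora. That Rora window (chromosome 9, 68653536 to 68653785) lies inside the gene span given above. It therefore precedes a start within the gene, and any other start of Rora was not searched. No match says only that these letters are not in these bases.

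Of 12 ROR, ERR and REV-ERB receptors and coregulators measured, Rora and Esrrb among them, 9 rose and 3 fell between P0 and P56 (median 1.03, against 0.08 over all probe sets), under all 3 scalings. Without Rora and Esrrb, 7 of the 10 others rose and 3 fell, against 40.1% and 35.3% of all probe sets. Esrra rose by 2.96 between P0 and P7, had no later step called lower, and stood at 11.27 at P56, against 7.56 at P0. Esrrg fell by 0.59, and Rorb fell by 1.82 to 7.10, against 8.92. The REV-ERB repressors, which compete with RORs for the same sites, rose between P0 and P56: Nr1d1 by 2.49 and Nr1d2 by 1.49. Between P7 and P56, however, Nr1d2 fell by 0.25, a change not called with quantile normalization (−0.11). The mean of Nr1d1 was 12.10 at P56, against 11.79 at P7. The coactivator Ppargc1b was highest at P21 (10.88, against 9.49 at P15) and fell by 2.32 between P21 and P56, whereas Ppargc1a rose by 0.59 between P0 and P56.

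Bhlhe41 (chromosome 6, 145858243 to 145865420), a repressor that binds E-boxes and takes part in the circadian clock, read 7.40, 7.71 and 7.67 at P0 and 9.21, 9.14 and 9.18 at P7. It read 9.27, 9.20 and 8.98 at P15, 9.50, 9.19 and 9.27 at P21, and 10.29, 10.24 and 10.42 at P56. The gene rose in 2 steps, with P7, P15 and P21 overlapping between them. In limma the first was 1.58 between P0 and P7 (SE 0.10, adjusted p 1.69e-10) and the second 1.00 between P21 and P56 (SE 0.10, adjusted p 1.79e-07). Bhlhe41 is also known from microglia, of whose 11 markers 0 were called higher and 5 lower in the second step (list mean 6.66 to 6.73 at P56, against 6.86 to 6.99 at P21), or 4 higher and 2 lower with equal array medians. The part of microglia in the rise of Bhlhe41 was not tested. Its paralog Bhlhe40 rose in the same steps, by 1.16 and 0.66.

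The 250 bases before the start of Bhlhe41 hold the E-box CACGTG once, shown in capitals because it is the site that BHLHE40 and BHLHE41 bind. It begins 153 bases before the start, and 6.02% of all windows hold it on either strand. The other 5 windows searched, those of Lhx1, Rora, Esrrb and Foxp4, do not.
Bhlhe41, chr6:145865421-145865670, minus strand (RefSeq, GRCm38.p6): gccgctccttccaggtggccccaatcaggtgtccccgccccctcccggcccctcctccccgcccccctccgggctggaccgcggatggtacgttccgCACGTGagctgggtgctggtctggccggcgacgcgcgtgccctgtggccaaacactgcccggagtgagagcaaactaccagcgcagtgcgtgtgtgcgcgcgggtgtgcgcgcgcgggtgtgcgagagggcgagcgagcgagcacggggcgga
TGTTTAC, a forkhead core (3.17% of windows), and TAATTA, a homeodomain core (4.84%), were in none of the 6 windows.

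Clock genes rose as a list by P7. Of 17 measured, which include Rora, Rorb, Bhlhe40 and Bhlhe41, 16 rose and Rorb fell between P0 and P7. The median was 1.32, against 0.05 over all probe sets. Without Rora and Bhlhe41, 14 of the 15 others rose and 1 fell, against 33.6% and 28.5% of all probe sets. Dbp rose by 3.57, Ciart by 2.71, Hlf by 2.25 and Arntl, which encodes the activator BMAL1, by 1.32. Between P7 and P56, 6 rose and 4 fell (median 0.10), or 8 and 3 with quantile normalization and 10 and 2 with equal array medians. Of all probe sets, 25.4% rose and 34.2% fell between these ages as deposited. In that span Cry1 rose by 1.02 and Ciart fell by 0.68. The labels give no hour of collection, so time of day and age cannot be told apart for these genes. In the comparison with P0, a change in capture cannot be told apart from them either.

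Hes3 (chromosome 4, 152285250 to 152291911), a repressor known from neural progenitors and from Purkinje cells, had the widest range. It read 6.01, 6.38 and 6.33 at P0, close to the lower quartile of an array, so the size of its rise is uncertain. It then read 11.36, 11.48 and 11.48 at P7, 11.82, 11.80 and 11.74 at P15, 11.84, 11.86 and 11.76 at P21, and 12.51, 12.72 and 12.62 at P56. P15 and P21 overlapped, and all other neighbouring ages were separate. In limma, Hes3 rose by 5.20 between P0 and P7 (SE 0.09, adjusted p 1.18e-17), by 0.35 between P7 and P15 (adjusted p 0.00708) and by 0.79 between P21 and P56 (adjusted p 6.07e-07). Its change of 6.37 between P0 and P56 ranked 7 by size among the 22092 probe sets.

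Among the other HES genes named here, Hes1 and Hes5 respond to Notch in many tissues. Hes5 fell by 1.17 between P0 and P56. Hes6 (−0.47) and Hes1 (−0.30) fell as well, but with equal array medians neither was called and Hes1 changed by 0.02. Hes7 rose by 0.43. Of 17 HES, HEY and BHLHE genes and partners, Hes3 and Bhlhe41 among them, 6 rose and 8 fell between P0 and P56 (median −0.11), or 6 and 6 with quantile normalization and 9 and 5 with equal array medians. Without those factors, 4 of the 15 others rose and 8 fell as deposited, against 40.1% and 35.3% of all probe sets. The corepressors Tle1 (−1.27), Tle2 (−0.88) and Tle4 (−1.34), which HES proteins recruit, fell, and Tle3 was not called, except with equal array medians (0.23, higher). In the Notch pathway, 4 of 18 genes rose and 14 fell (median −1.17) under all 3 scalings, with the receptors Notch1 (−2.46) and Notch2 (−2.45), the coactivator Maml2 (−2.14) and the ligand Jag1 (−1.88) down. Dner, a Notch ligand known from Purkinje cells and on the marker list, rose by 0.43, and the Notch inhibitor Numb by 1.42. Endothelial and astroglial cells also carry Notch receptors and ligands: their markers fell in 12 of 12 cases (6.58 to 6.77 at P56, against 9.16 to 9.19 at P0) and 8 of 12 cases (9.39 to 9.54, against 10.24 to 10.28), and the part of these cells in the falls was not tested.

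Foxp2 (chromosome 6, 14901349 to 15441977), a forkhead repressor known in humans from an inherited speech disorder, went the other way. It read 11.28, 11.27 and 11.25 at P0, 11.05, 11.01 and 11.00 at P7, and 10.62, 10.53 and 10.74 at P15. The arrays read 10.57, 10.57 and 10.36 at P21 and 10.38, 10.72 and 10.49 at P56. P0 lay above P7 and P7 above the later ages, while P15, P21 and P56 overlapped. In limma, Foxp2 fell by 0.25 between P0 and P7 (SE 0.09, adjusted p 0.0171), a call lost with equal array medians (−0.19, adjusted p 0.0639). It fell by 0.39 between P7 and P15 (SE 0.09, adjusted p 0.00287). Its change of −0.74 between P0 and P56 (SE 0.09, adjusted p 4.59e-07) was −0.41 with equal array medians and still called. Cerebellar nuclei and brainstem neurons also carry Foxp2. Their markers fell in 7 of 10 cases between P0 and P7 (7.31 to 7.47 at P7, against 8.60 to 8.66 at P0, background 28.5% lower). Between P7 and P15, 1 of 10 fell and 1 rose (7.39 to 7.46 at P15, against 7.31 to 7.47 at P7, background 13.6% lower and 10.4% higher). Their part in the falls of Foxp2 was not tested.

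Foxp4 (chromosome 17, 47867133 to 47924632), its relative, read 10.00, 10.04 and 10.11 at P0 and 11.78, 11.75 and 11.78 at P7. It stayed at 11.78, 11.75 and 11.95 at P15, 11.78, 11.78 and 11.88 at P21, and 12.03, 12.03 and 11.95 at P56. The P0 arrays lay below all later ones, P7, P15 and P21 overlapped, and P56 lay above P7 and P21 but overlapped P15. In limma, Foxp4 rose by 1.72 between P0 and P7 (SE 0.07, adjusted p 2.99e-13). The further rise of 0.19 between P21 and P56 (adjusted p 0.0210) was lost in 6 of 14 alternatives, among them array weights (adjusted p 0.0579) and the omission of P21 replicate 1 or 2 or P56 replicate 1 or 2 (adjusted p 0.0503 to 0.0652). In the deposited values 4 arrays of Foxp4 (P7 replicates 1 and 3, P21 replicates 1 and 2) hold the identical number, and such ties occur in 25.8% of all probe sets. Foxp1, the other family member measured, fell by 1.35 between P0 and P7 and fell by 1.82 between P0 and P56, to 8.88, against 10.69.

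The steps between neighbouring ages held 9, 5, 0 and 7 calls in the 9 factors, against 62.1%, 24%, 17.7% and 56.4% of all probe sets, so the uneven spread of calls over the steps is not a result about these factors. Between P7 and P15, 2 rose (Lhx5 and Hes3) and 3 fell (Esrrb, Foxp2 and Skor2), against a background of 24% called, 10.4% higher and 13.6% lower, and the split was 2 and 2 with quantile normalization or equal array medians. Between P15 and P21, limma called 0 of 9 (background 17.7% called, 10.5% higher and 7.16% lower), and 1, Esrrb, had an unadjusted p under 0.05. Between P21 and P56, 5 rose (Bhlhe41, Hes3, Lhx1, Lhx5 and Foxp4) and 2 fell (Esrrb and Skor2), against a background of 56.4% called, 22.1% higher and 34.3% lower. That split turned to 6 and 0 with quantile normalization and to 7 and 0 with equal array medians. Foxp2 was then called higher under both (0.20 and 0.27), and Rora under the medians (0.19). In the same step, 10 of 11 oligodendrocyte markers fell (8.76 to 8.80 at P56, against 9.71 to 9.99 at P21), 8 of 12 interneuron markers fell (8.12 to 8.32, against 8.99 to 9.19) and 7 of 14 Purkinje markers rose and 3 fell (13.22 to 13.25, against 13.09 to 13.17), or 10 and 1 with equal array medians. Their part in the changes of the factors was not tested.

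**Figure D3:**
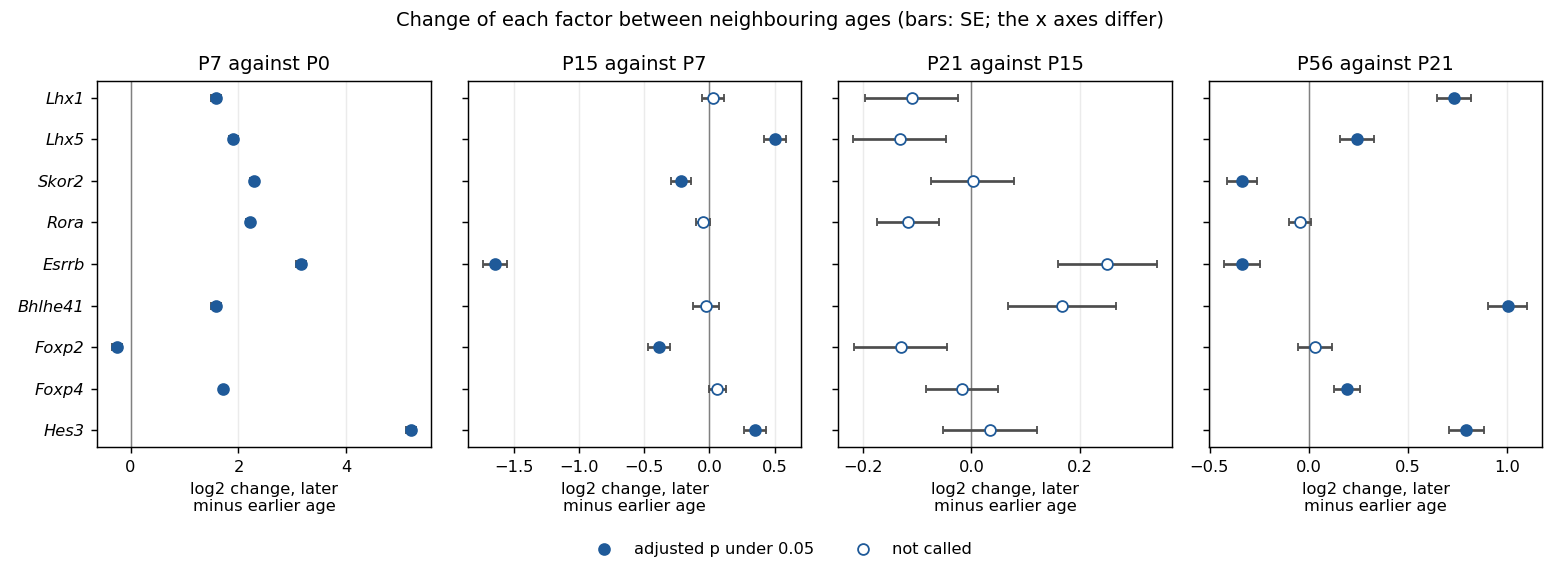
Log2 change of each factor (rows) between neighbouring ages, later minus earlier (x axes, which differ in range), with the SE of the limma fit. Filled points passed an adjusted p of 0.05 over all probe sets: 9 of 9 for P7 against P0, 5 for P15 against P7, 0 for P21 against P15 and 7 for P56 against P21.

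Set against the mean of the 14 Purkinje markers in the same array, Hes3 was the only factor of the 9 that rose between P0 and P7. It rose by 1.08 relative to the markers (SE 0.10, limma adjusted p 2.18e-09), as did 0.14% of all probe sets. The other 8 factors fell relative to the markers, which 99.8% of all probe sets did, so that count is not a result about these factors. Their relative changes ran from −0.97 for Esrrb to −4.37 for Foxp2. Between P0 and P56, Hes3 again rose relative to the markers (2.08, SE 0.10, limma adjusted p 5.69e-14), as did 0.177% of all probe sets, and the other 8 factors fell, as did 99.8%. Between P7 and P56, when the marker mean changed by 0.17, Hes3 (1.00), Bhlhe41 (0.97), Lhx1 (0.48) and Lhx5 (0.44) rose relative to the markers, against 11.8% of all probe sets. Esrrb (−1.90), Skor2 (−0.72), Foxp2 (−0.66) and Rora (−0.39) fell relative to them, against 45.1%, and Foxp4 was not called (0.06, limma adjusted p 0.530).

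The genes with the most similar course were ranked by Pearson correlation over the 15 arrays, given as a description since the difference between P0 and the later ages dominates it. Closest to Hes3 were Pip5k1b (0.999), a phosphoinositide kinase gene, Ttll5 and Rab11fip4 (0.998 each), and Ttll5 was also near Foxp4 (0.997), beside Ppp1r16b and Dlgap4 (0.997 each). Rora was closest to Strip2, Mtss1 and Cpne9 (0.998 each). Skor2 was closest to Shc4 (0.996), Dnaja3 (0.995) and Gad1 (0.993), the gene of a GABA-making enzyme, and Lhx5 to Jtb, Atrnl1 and Ndufa7 (0.995 each). Lhx1 was closest to Ndufb9 and Mamld1 (0.994 each) and Cdc42bpa (0.993), and Bhlhe41 to Ss18l2 (0.992), Sacm1l and Ndufa1 (0.991 each). Nearest to Esrrb were F8a (0.990), Atg7, an autophagy gene (0.986), and Rdh13 (0.984), whose highest means were at P7 as well. Foxp2 had looser neighbours, Mbtd1 and Nup54 (0.974 each) and Tead2 (0.968), which like it had their highest means at P0. Among the 9 factors, the highest correlation was 0.995 between Foxp4 and Hes3, and those of Foxp2 with the other 8 were all below 0, from −0.84 with Lhx5 to −0.25 with Esrrb.

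A list compiled for Purkinje lineage specification before birth held 20 measured genes, Dab1 and Gsx1 among them. Whether each of them specifies that lineage was not tested. Between P0 and P56, 6 rose and 10 fell (median −0.17, against 0.08 over all probe sets), while 40.1% of all probe sets rose and 35.3% fell. The split was 7 and 8 with quantile normalization and 10 and 8 with equal array medians. Among the EBF factors, Ebf1 rose by 1.19 to 12.63 at P56, against 11.44 at P0, and Ebf3 fell by 1.88 to 10.22, against 12.10, with −1.01 of that between P7 and P15. Etv1, also known from granule cells, rose by 1.77. Olig2 (−1.78), known also from oligodendrocytes, En1 (−1.66) and Pou3f2 (−1.48) fell. Ptf1a, the factor that sets the GABA lineage in the embryo, had age means between 6.01 and 6.46, near the lower quartile, and may be background.

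**Figure D4:**
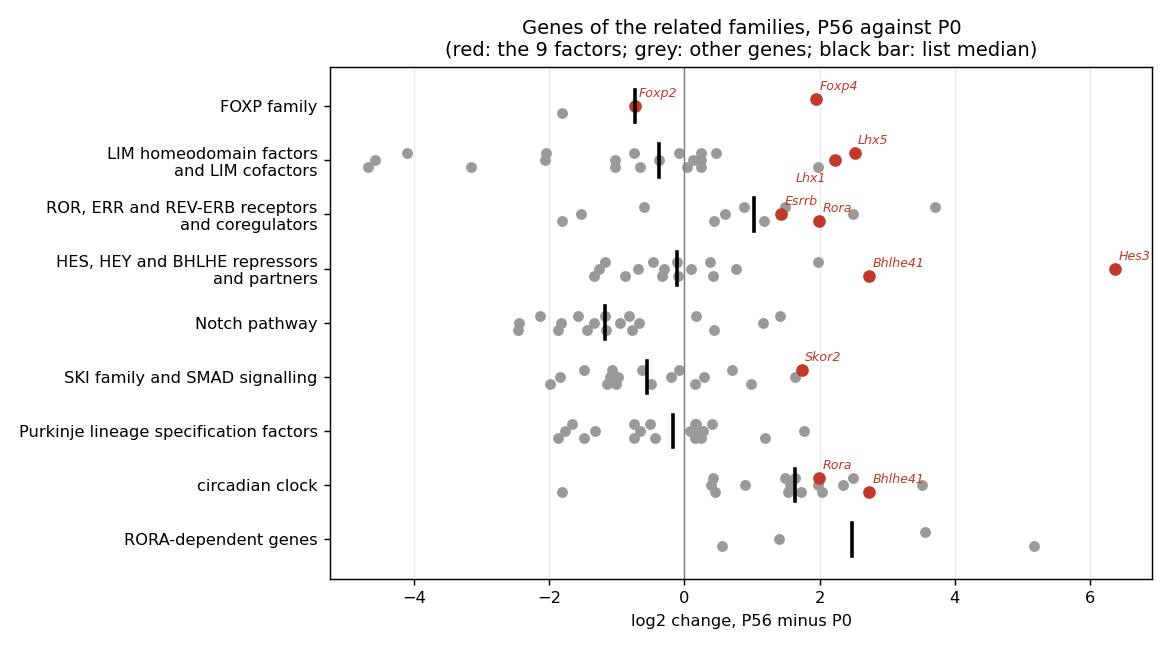
Log2 change between P0 and P56, P56 minus P0 (x axis), of the genes in 9 lists (rows); red points are the 9 factors, grey points other genes, and black bars list medians. Hes3 (6.37), Lhx5 (2.52) and Lhx1 (2.23) lie at the upper end of their lists, and Foxp2 (−0.74) lies below 0.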

How the data were processed

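The authors deposited normalized log2 signals, with a column for each of 15 arrays and a row for each probe set. The submitters' processing notes name Affymetrix Power Tools; its version, the algorithm, the centring and the log base were not given in the sources. Base 2 was inferred from values of 3.15 to 14.08. Of 22092 probe sets, 20996 had 1 gene symbol, 91 several and 1005 no entry in the platform annotation (2016). Of the symbols, 20959 were looked up by Entrez number in RefSeq and 0 changed. Each gene was represented by its brightest probe set (highest mean of the 15 arrays).

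The fit used limma 3.58.1 (R 4.3.3), with a mean per age, all 15 arrays, no covariate, 10 residual and 6.5 prior degrees of freedom, two-sided, and Benjamini-Hochberg adjustment over all probe sets. The test was checked on simulated data in which a probe set had the same spread in every array, so unequal spread between arrays was not covered. Marker-relative values subtract each array's mean of 14 Purkinje markers. Precision is limited by the number of arrays. The fit gives a probe set the same spread at every age. Array weights, which are lower for noisier arrays, were 0.40 to 0.45 at P56 and 1.57 to 3.31 at P7. All arrays entered the fit, and 0 pairs of arrays were identical.

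The 9 factors and all lists were chosen with earlier results of these data known, so no list is independent evidence. Named were the 9 factors, the 3 genes closest to each by correlation (unnamed or predicted genes, small RNAs and olfactory or vomeronasal receptors passed over), up to 4 called genes per family list with the largest change between P0 and P56, and the genes of the RORA list. Other family genes were chosen after their values were seen. Replicate numbers were not taken as pairs, and whether they mark pairs is not stated. The deviations of same-numbered arrays correlated at 0.0017 on average (−0.31 to 0.45), and above 0.1 in 5 of 30 pairs. For arrays of other numbers the range was −0.42 to 0.24, with 10 of 60 pairs above 0.1. Alternatives were quantile normalization, equal array medians, array weights, a trended and robust prior, the mean of a gene's probe sets, removal of the dimmer probe sets, the compared ages alone, a replicate block and omission of each array. Each factor had a single probe set, so the mean of probe sets and the removal of dimmer ones left its signals unchanged. For the factors, those settings could alter only the prior and the adjustment. The scalings of the gene lists were added after seeing the data. Promoter windows of 5 factors were searched. Plots were made with matplotlib 3.10.9 (Python 3.11.15).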

Additional observations from a re-analysis of the deposited data

How the results depend on the processing

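The number of called factors stayed within 1.5 times the reported number in all alternatives run, except for P21 against P15, where 0 became 1 (Esrrb) without the dimmer probe sets and 0 to 1 when arrays were left out in turn. Leaving out arrays gave 9 for P7 against P0, P56 against P0 and P56 against P7, 4 to 5 for P15 against P7 and 5 to 6 for P56 against P21. The replicate block called 4 in place of 5 for P15 against P7 (it lost Skor2) and changed no other call of the factors. With equal array medians the sign turned for Rora in P15 against P7 (0.019), P56 against P21 (0.19) and P56 against P7 (0.052), for Bhlhe41 in P15 against P7 (0.043), and for Skor2 (−0.037) and Hes3 (−0.0046) in P21 against P15. With quantile normalization it turned for Bhlhe41 in P15 against P7 (0.021) and Skor2 in P21 against P15 (−0.016), and with array weights for Lhx1 (−0.0043) and Bhlhe41 (0.019) in P15 against P7. When arrays were left out in turn, changes that crossed 0 were those of Lhx1 (−0.037 to 0.072), Bhlhe41 (−0.086 to 0.061) and Foxp4 (−0.0012 to 0.099) in P15 against P7, of Skor2 (−0.042 to 0.060) and Foxp4 (−0.056 to 0.044) in P21 against P15, and of Foxp2 in P56 against P21 (−0.063 to 0.11). Of these, Rora in P56 against P7 alone was called as reported, and the cause was not tested. Of all probe sets called between P21 and P56, 39.3% were higher, against 50.0% with quantile normalization and 69.1% with equal array medians. With equal medians that share was 70.2% in place of 53.2% for P56 against P0, 71.9% in place of 42.5% for P56 against P7, 62.2% in place of 43.3% for P15 against P7 and 45.9% in place of 59.5% for P21 against P15. No background level or batch is given for an array, which leaves low signals such as Hes3 at P0 uncertain in size.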
